A study of Mus musculus with 2 samples.

Results

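Mitochondrial ribosomal protein genes were taken from the deposited count table as every row whose symbol begins with Mrpl or Mrps followed by a number, leaving out pseudogene names. This rule found 77 of the 30538 listed genes, and it used no measured value. RNA sequencing was performed on spleen cells sorted as CD11b+, Ly6G- and Ly6C-low, which the labels call splenic macrophages. The Ch25h-/- library came from mice that lack cholesterol 25-hydroxylase, the enzyme that makes 25-hydroxycholesterol, and the C57BL/6 library came from mice with no other allele named. Animals of both genotypes had received 100000 *Listeria monocytogenes* intravenously, and the cells were collected on day 3 of infection, about 100000 per sort. Each genotype has 1 library, no uninfected group was analysed here, and the labels do not give the age, the sex or the number of mice behind a library.

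Mitochondria keep their own ribosome, which translates the few messages of the mitochondrial genome into membrane subunits of the respiratory chain. Its RNAs are transcribed from mitochondrial DNA, whereas all of its proteins are encoded in the nucleus, made in the cytosol and imported. The large subunit joins amino acids and holds the exit tunnel, the small subunit reads the message, and each subunit combines proteins with a bacterial counterpart with others found only in mitochondrial ribosomes.

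The Ch25h-/- library held 15986392 gene counts and the C57BL/6 library 16957371. Values are in CPM, gene counts per unit of library size after TMM scaling, and genes that averaged at least 1 CPM counted as measured. The ratio is Ch25h-/- over C57BL/6, given as log2 with an exact 95% interval of counting error only. A gene was called higher or lower when its log2 ratio lay 0.32 or more from 0 and its interval kept to 1 side of 0, and a further rule asked for at least 2-fold. There is no replicate check, so a call compares these 2 libraries and not the genotypes. Ch25h itself had 0 counts in the Ch25h-/- library and 3 in the C57BL/6 library, too few to check the labels.

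The markers of the sorted cells did not all go with the label. The 17 red pulp and marginal zone macrophage markers were all measured, none at 0, and summed to 589 CPM in the Ch25h-/- library and 864 CPM in the C57BL/6 library. Of these, 1 was called higher and 12 lower. The 12 markers of NK cells and cytotoxic lymphocytes summed to 21459 CPM in the Ch25h-/- library and 13335 CPM in the C57BL/6 library, far above the macrophage list in both, and all 12 were called higher. All 14 proliferation genes were called higher, with sums of 2862 CPM in the Ch25h-/- library and 1618 CPM in the C57BL/6 library. So were all 10 neutrophil genes, with sums of 2069 CPM in the Ch25h-/- library and 1136 CPM in the C57BL/6 library. The B cell list had 7 of 8 genes lower, with sums of 805 CPM in the Ch25h-/- library and 1302 CPM in the C57BL/6 library. The conventional dendritic cell list had 6 of its 7 measured genes lower, with sums over all 10 genes of 704 CPM in the Ch25h-/- library and 1673 CPM in the C57BL/6 library. Its marker Xcr1 had 6 counts in the Ch25h-/- library and 0 in the C57BL/6 library. The Ly6C-low monocyte list was mixed, with 3 higher and 4 lower of 9, and summed to 3100 CPM in the Ch25h-/- library and 2620 CPM in the C57BL/6 library. Most of that sum came from Itgal (1784 CPM in the Ch25h-/- library and 1341 CPM in the C57BL/6 library) and Spn (676 and 471 CPM). The median log2 ratio of this list was -0.25, with 3 genes above 0 and 6 below. Over all measured genes, 17.1% were called higher and 18.3% lower. In bulk libraries, fewer cells of a type and less RNA per cell cannot be told apart, and the part these marker shifts have in the ratios below was not tested.

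The family as a whole took up nearly the same share of both libraries. Its 77 genes summed to 21476 counts in the Ch25h-/- library, 0.134% of all counts (exact binomial 95% interval 0.133% to 0.136%), and to 22467 counts in the C57BL/6 library, 0.132% (0.131% to 0.134%). The sums were 1356 CPM in the Ch25h-/- library and 1313 CPM in the C57BL/6 library, a log2 ratio of 0.05 (0.02 to 0.07). Of the 77 genes, 76 were measured. The exception was Mrpl53, a large-subunit gene with 7 counts in each library. Gm42688 overlaps it on the same strand over 695 of its 790 exon bases, so its reads cannot be assigned with certainty.

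Individual genes were spread to both sides of that balance. Of the 76 measured genes, 12 were called higher, which is 15.8%, against 17.1% of all 11972 measured genes. Another 9 were called lower, which is 11.8%, against 18.3% of all measured genes, and 55 were not called. At 2-fold the only call was Mrps33, higher, and there was none lower, against backgrounds of 2.07% higher and 5.77% lower. With no size asked, 19 intervals lay above 0 and 12 below it, where 31.0% and 27.5% of all measured genes did. At a minimum mean of 5 CPM, 72 members were left, with 11 called higher and 9 lower, against 18.0% and 16.7% of 10077 genes, and none passed 2-fold, against 1.19% higher and 3.44% lower. At 5 CPM the member shares were 15.3% higher and 12.5% lower. By each of these rules, the shares of higher and of lower calls were both below the background. Whether the gap differs between the directions was not tested. Members had wider counting intervals, with a median of 0.27 to each side against 0.18 for all measured genes. At 5 CPM these were 0.27 and 0.155. A wider interval makes a call harder to reach at a given ratio, and its part in these shares was not tested. The median log2 ratio of the members was 0.08 (quartiles -0.22 and 0.23, SD 0.38), beside 0.01 for all measured genes (SD 0.58), with 43 members above 0 and 33 below.

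**Figure D1:**
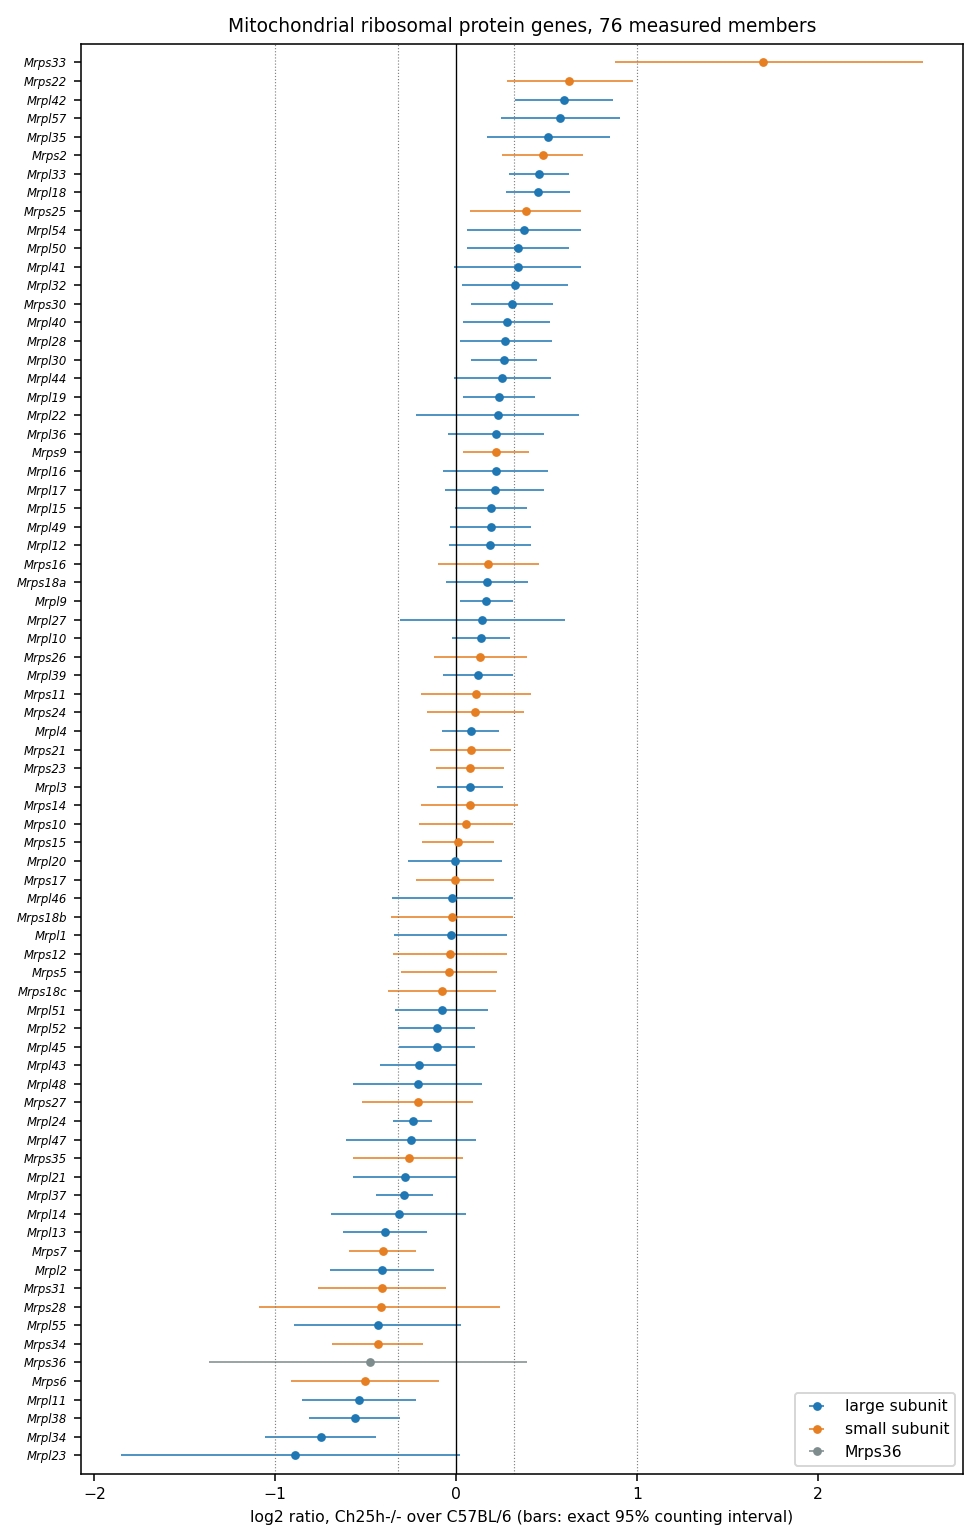
Log2 ratio of Ch25h-/- over C57BL/6 (horizontal axis) for each of the 76 measured genes (rows, by ratio), with exact 95% counting intervals as bars and dotted lines at the thresholds of 0.32 and 1 on each side. Mrps33 stands alone at 1.70 at the top, most other genes lie between -0.5 and 0.6, and the bars of Mrps33, Mrpl23, Mrps36 and Mrps28 are among the widest.

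Large-subunit genes made up 8 of the 12 higher calls and 49 of the 76 measured genes. The shares called higher were 16.3% in the large subunit and 15.4% in the small, against 17.1% of all measured genes. Mrpl42, a protein found only in mitochondrial ribosomes, had 270 counts (17.0 CPM) in the Ch25h-/- library and 193 (11.3 CPM) in the C57BL/6 library, a log2 ratio of 0.60 (0.32 to 0.87). Mrpl57, also specific to mitochondria, had 186 counts (11.7 CPM) in the Ch25h-/- library and 135 (7.89 CPM) in the C57BL/6 library, a ratio of 0.57 (0.25 to 0.90). Mrpl35, which has a bacterial counterpart, had 170 counts (10.7 CPM) in the Ch25h-/- library against 129 (7.54 CPM) in the C57BL/6 library, a ratio of 0.51 (0.17 to 0.85). The intervals of these 3 genes overlapped, and the genes are neighbours in the order of ratios.

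More abundant large-subunit genes were also called higher. Mrpl33, a very small protein with a bacterial counterpart, reached 44.1 CPM (698 counts) in the Ch25h-/- library and 32.1 CPM (549 counts) in the C57BL/6 library, log2 ratio 0.46 (0.29 to 0.62). Mrpl18, whose bacterial relative sits in the central protuberance at the top of the large subunit, reached 38.3 CPM (607 counts) in the Ch25h-/- library and 28.0 CPM (479 counts) in the C57BL/6 library, log2 ratio 0.45 (0.28 to 0.63). The narrow intervals of this pair go with their higher counts.

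The remaining higher calls of the large subunit were small and near the threshold. Mrpl54 stood at 11.8 CPM in the Ch25h-/- library and 9.12 CPM in the C57BL/6 library (0.37, interval 0.06 to 0.69), and Mrpl50 at 14.5 CPM in the Ch25h-/- library and 11.5 CPM in the C57BL/6 library (0.34, 0.06 to 0.62). Both are specific to mitochondria. Mrpl32, whose maturation by the inner membrane m-AAA protease precedes its assembly into the ribosome, had 13.4 CPM in the Ch25h-/- library and 10.7 CPM in the C57BL/6 library (0.32, 0.03 to 0.62). It lost its call under 2 other scalings and with a prior count. Mrpl41 had a ratio of 0.34, but its interval crossed 0 (-0.01 to 0.69) and it was not called.

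Among the large-subunit genes, 5 were called lower. Mrpl34, a small protein with a bacterial counterpart, had 140 counts (8.84 CPM) in the Ch25h-/- library and 254 (14.8 CPM) in the C57BL/6 library, a log2 ratio of -0.75 (-1.06 to -0.44), which made it 1.68-fold lower and the lowest ratio among the called members. Mrpl38, a mitochondria-specific protein of the central protuberance, had 214 counts (13.5 CPM) in the Ch25h-/- library against 341 (19.9 CPM) in the C57BL/6 library, a ratio of -0.56 (-0.81 to -0.31). Mrpl11, at the base of the stalk where elongation factors bind, had 138 counts (8.71 CPM) in the Ch25h-/- library and 216 (12.6 CPM) in the C57BL/6 library, a ratio of -0.54 (-0.85 to -0.22). Each of these 3 genes was under 14 CPM in the Ch25h-/- library and above 12 CPM in the C57BL/6 library.

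Mrpl2, which lies next to the centre where peptide bonds form, stood at 10.9 CPM in the Ch25h-/- library and 14.5 CPM in the C57BL/6 library, log2 ratio -0.41 (-0.70 to -0.12). Mrpl13, also shared with bacteria, stood at 16.6 CPM in the Ch25h-/- library and 21.8 CPM in the C57BL/6 library, log2 ratio -0.39 (-0.63 to -0.16). The lowest ratio of all measured members belonged to Mrpl23, at the mouth of the exit tunnel, but on 16 counts in the Ch25h-/- library and 32 in the C57BL/6 library. Its ratio of -0.89 had an interval of -1.85 to 0.02, so it was not called. Mrpl55 was not called either, at 4.29 CPM in the Ch25h-/- library and 5.79 CPM in the C57BL/6 library (-0.43, interval -0.90 to 0.03).

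Other large-subunit genes can be placed by where their proteins sit. At the stalk, Mrpl12, a flexible arm that recruits translation factors, had 20.8 CPM in the Ch25h-/- library and 18.3 CPM in the C57BL/6 library, a ratio of 0.19 (-0.04 to 0.42). Mrpl10, which anchors it, had 41.1 CPM in the Ch25h-/- library and 37.3 CPM in the C57BL/6 library, a ratio of 0.14 (-0.02 to 0.30), while Mrpl11 at their base was called lower. At the exit tunnel, Mrpl24 had 78.2 CPM (1239 counts) in the Ch25h-/- library and 92.4 CPM (1581 counts) in the C57BL/6 library, a ratio of -0.24 (-0.35 to -0.13) whose interval lay wholly below 0 but whose size was under 0.32. Mrpl22 beside it had 5.62 CPM in the Ch25h-/- library and 4.79 CPM in the C57BL/6 library, and Mrpl45, which holds the ribosome to the inner membrane, had 349 counts in the Ch25h-/- library and 406 in the C57BL/6 library, a ratio of -0.11. Mrpl4, also a protein of the tunnel, had 41.7 CPM in the Ch25h-/- library and 39.4 CPM in the C57BL/6 library. None of Mrpl4, Mrpl22, Mrpl23, Mrpl24 and Mrpl45 was called.

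In the central protuberance, beside Mrpl38, called lower, and Mrpl18, called higher, Mrpl40 had 19.4 CPM in the Ch25h-/- library and 16.0 CPM in the C57BL/6 library (0.28, interval 0.04 to 0.52), and Mrpl46 had 9.15 CPM in the Ch25h-/- library and 9.29 CPM in the C57BL/6 library. Around the peptidyl transferase centre, Mrpl3 had 31.6 CPM in the Ch25h-/- library and 30.0 CPM in the C57BL/6 library, and Mrpl16 had 13.3 CPM in the Ch25h-/- library and 11.4 CPM in the C57BL/6 library. Neither Mrpl3 nor Mrpl16 was called, unlike Mrpl2.

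Over the whole large subunit, 49 genes were measured, 8 were called higher and 5 lower, and the median log2 ratio was 0.15. The 30 with a bacterial counterpart had 4 higher and 4 lower (median 0.14), and the 19 specific to mitochondria had 4 higher and 1 lower (median 0.17). The shares called higher and lower were 16.3% and 10.2% for the large subunit, against 17.1% and 18.3% of all measured genes, whose median was 0.01. They were 13.3% and 13.3% with a bacterial counterpart, and 21.1% and 5.26% for those specific to mitochondria.

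The small subunit held the largest single ratio of the family. Mrps33, a small mitochondria-specific protein, had 51 counts (3.22 CPM) in the Ch25h-/- library and 17 (0.993 CPM) in the C57BL/6 library, which is 3.24-fold higher, with a log2 ratio of 1.70 (0.88 to 2.58). Few reads stand behind it, and it falls below a minimum of 5 CPM. Mrps22, also specific to mitochondria and known in humans as a gene of inherited mitochondrial disease, had 170 counts (10.7 CPM) in the Ch25h-/- library and 119 (6.95 CPM) in the C57BL/6 library, a ratio of 0.63 (0.28 to 0.98). Of the other higher calls, Mrps2, which has a bacterial counterpart, had 378 counts (23.9 CPM) in the Ch25h-/- library and 293 (17.1 CPM) in the C57BL/6 library, a ratio of 0.48 (0.25 to 0.70). Mrps25, specific to mitochondria, had 12.4 CPM in the Ch25h-/- library and 9.53 CPM in the C57BL/6 library (0.38, interval 0.08 to 0.69).

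The 4 lower calls of the small subunit differed in role and abundance. Mrps6, a platform protein with a bacterial counterpart, had 85 counts (5.37 CPM) in the Ch25h-/- library and 130 (7.60 CPM) in the C57BL/6 library, a log2 ratio of -0.50 (-0.91 to -0.10). Mrps34, specific to mitochondria, had 225 counts (14.2 CPM) in the Ch25h-/- library against 328 (19.2 CPM) in the C57BL/6 library, a ratio of -0.43 (-0.68 to -0.18). Mrps7, a protein of the head that contacts tRNA in bacteria, was the most abundant of them, with 412 counts (26.0 CPM) in the Ch25h-/- library and 590 (34.5 CPM) in the C57BL/6 library, a ratio of -0.41 (-0.59 to -0.22). Mrps31, also specific to mitochondria, had 7.26 CPM in the Ch25h-/- library and 9.64 CPM in the C57BL/6 library (-0.41, interval -0.77 to -0.06). All 4 stood lower by a similar step.

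Some of the other small-subunit genes lay close to 0, and others, also uncalled, lay further off. Mrps12, at the decoding centre, had 10.3 CPM in the Ch25h-/- library and 10.5 CPM in the C57BL/6 library. Mrps15 had 25.8 CPM in the Ch25h-/- library and 25.6 CPM in the C57BL/6 library, and Mrps17 had 21.6 CPM in the Ch25h-/- library and 21.7 CPM in the C57BL/6 library. Their ratios were within 0.04 of 0, with intervals on both sides. Further off, Mrps9 had a ratio of 0.22 (0.04 to 0.40), Mrps27 one of -0.21 and Mrps35 one of -0.26. Mrps28 had a ratio of -0.42, on 34 counts in the Ch25h-/- library and 49 in the C57BL/6 library, and an interval of -1.09 to 0.24. Of the 26 measured small-subunit genes, 4 were called higher and 4 lower, and the median was 0.03. The 16 with a bacterial counterpart had 1 higher and 2 lower (6.25% and 12.5%, median 0.03). The 10 specific to mitochondria had 3 higher and 2 lower (30.0% and 20.0%, median 0.03). For the whole small subunit both shares were 15.4%, against 17.1% higher and 18.3% lower of all measured genes.

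The 3 Mrps18 paralogues, of which Mrps18a belongs to the large subunit despite its name, were not called. Mrps18a had 20.9 CPM in the Ch25h-/- library and 18.6 CPM in the C57BL/6 library (0.17, interval -0.06 to 0.40), Mrps18b had 8.96 CPM in the Ch25h-/- library and 9.12 CPM in the C57BL/6 library (-0.02, -0.36 to 0.31), and Mrps18c had 11.3 CPM in the Ch25h-/- library and 11.9 CPM in the C57BL/6 library (-0.08, -0.38 to 0.22). Their intervals overlapped one another. Mrps36, named as a ribosomal protein but now known as a component of the 2-oxoglutarate dehydrogenase complex, had 20 counts in the Ch25h-/- library and 30 in the C57BL/6 library (-0.47, interval -1.37 to 0.39). Leaving it out kept the counts of calls at 12 and 9.

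Levels were far more uneven between genes than between libraries. On the scale of CPM per kilobase of the principal mRNA, the median of the measured genes was 10.5 in the Ch25h-/- library and 9.76 in the C57BL/6 library, although the proteins are present in the ribosome in fixed ratios, mostly 1 copy each. Mrpl33 has no known mRNA length here, so it is left out of these levels. It had 44.1 CPM in the Ch25h-/- library and 32.1 CPM in the C57BL/6 library. Among the genes with a known length, Mrpl24 was highest, at 58.4 in the Ch25h-/- library and 69.0 in the C57BL/6 library. Next came Mrpl52, a mitochondria-specific protein, with 50.9 CPM per kilobase in the Ch25h-/- library and 54.8 in the C57BL/6 library (ratio -0.11, interval -0.32 to 0.11). Mrps21, with a bacterial counterpart, had 42.3 in the Ch25h-/- library and 40.0 in the C57BL/6 library (ratio 0.08, -0.14 to 0.30). The highest 5 were completed by Mrpl4, with 32.4 in the Ch25h-/- library and 30.6 in the C57BL/6 library (ratio 0.08, -0.08 to 0.24), and Mrpl30, with 33.9 in the Ch25h-/- library and 28.2 in the C57BL/6 library (ratio 0.27, 0.08 to 0.45). Both of these also have bacterial counterparts, and 4 of the 5 belong to the large subunit.

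The lowest 5 levels per length were in Mrpl53, Mrps25, Mrpl17, Mrps33 and Mrpl48. In CPM per kilobase, the Ch25h-/- library had 0.636 for Mrpl53, 2.05 for Mrps25, 2.01 for Mrpl17, 2.91 for Mrps33 and 1.77 for Mrpl48. The C57BL/6 library had 0.589 for Mrpl53, 1.57 for Mrps25, 1.74 for Mrpl17, 0.897 for Mrps33 and 2.05 for Mrpl48. Of these, Mrpl17 had a log2 ratio of 0.21 (-0.06 to 0.49), Mrpl48 one of -0.21 (-0.57 to 0.15) and Mrpl53 one of 0.11 (-1.63 to 1.85). Among measured members with a known mRNA length, the highest level was 40.0 times the lowest in the Ch25h-/- library. In the C57BL/6 library, where Mrps33 was lowest, it was 76.9 times the lowest. Between the quartiles the step was 3.42-fold in the Ch25h-/- library and 3.69-fold in the C57BL/6 library. The order of levels had a Spearman rho of 0.97 between libraries over 76 genes, a description that both libraries' shared mRNA lengths help to set. With the union of all exons as the length, the order had a rho of 0.85 with that by principal mRNA, so the place of a gene in it depends on the length used. Large-subunit genes had a median of 10.6 CPM per kilobase in both libraries, and small-subunit genes 8.64 in the Ch25h-/- library and 8.34 in the C57BL/6 library, with overlapping quartiles.

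**Figure D2:**
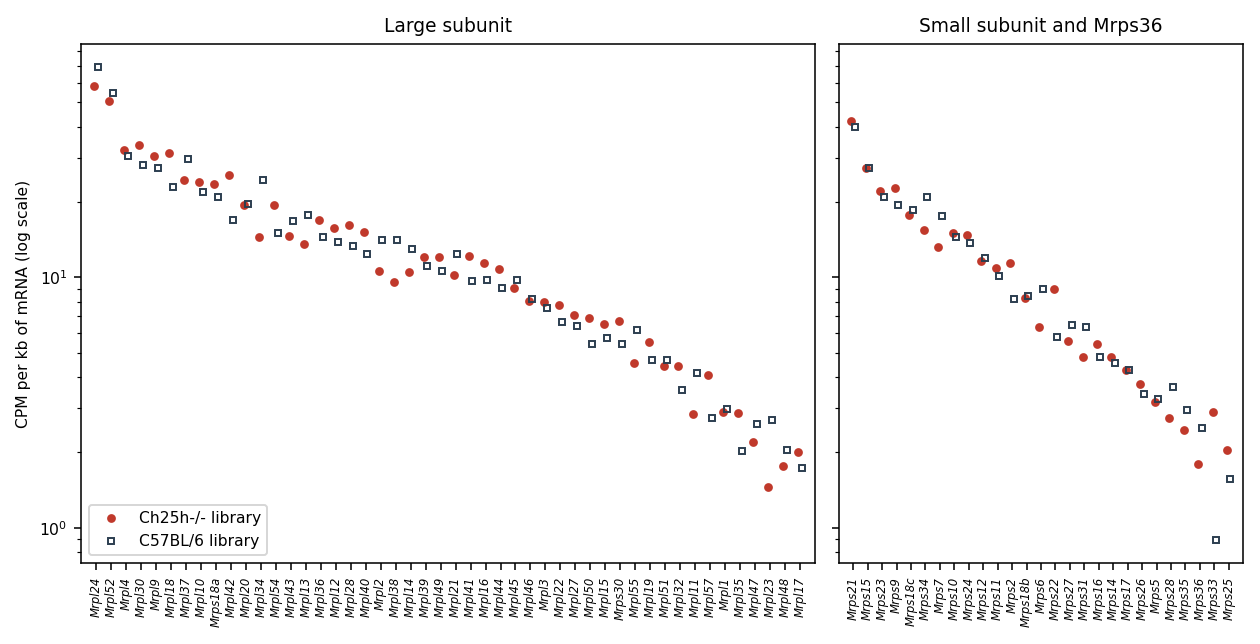
Level in CPM per kilobase of the principal mRNA (vertical log axis) for each gene with a known mRNA length and a mean of at least 1 CPM, large subunit at left and small subunit with Mrps36 at right, filled circles for the Ch25h-/- library and open squares for the C57BL/6 library. The order runs from Mrpl24, at 58.4 in the Ch25h-/- library and 69.0 in the C57BL/6 library, down to genes near 2, and the symbols of a gene mostly lie close together, with Mrps33 (2.91 in the Ch25h-/- library and 0.897 in the C57BL/6 library) the widest apart.

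Promoters were read from RefSeq (GRCm38.p6) as 250 bases before to 50 after the start, and 68 of the 77 genes had an entry. The strings of 7 motifs are reported, kept after a first search of these promoters with further strings, so their shares are a description. The first 3 are bound by the ETS factor GABP, nuclear respiratory factor NRF1 and YY1, which are known regulators of nuclear genes for mitochondrial proteins. Those strings were CCGGAAG for ETS, GCATGCGC for NRF1 and AAGATGGC for YY1, on both strands, and a match is a string and not a binding site. The promoters below are those of 5 genes called higher and 3 called lower. Mrpl33 and Mrpl32 are shown for their matches and the others for their ratios, 5′ to 3′ on the strand of the gene, with matches to these 3 strings on either strand in capitals.
Mrps33: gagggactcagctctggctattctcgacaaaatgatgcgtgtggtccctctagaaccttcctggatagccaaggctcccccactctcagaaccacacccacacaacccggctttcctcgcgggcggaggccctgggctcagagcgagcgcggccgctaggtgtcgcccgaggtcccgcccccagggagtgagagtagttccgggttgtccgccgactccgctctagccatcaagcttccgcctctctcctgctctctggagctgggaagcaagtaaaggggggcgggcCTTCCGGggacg
Mrps22: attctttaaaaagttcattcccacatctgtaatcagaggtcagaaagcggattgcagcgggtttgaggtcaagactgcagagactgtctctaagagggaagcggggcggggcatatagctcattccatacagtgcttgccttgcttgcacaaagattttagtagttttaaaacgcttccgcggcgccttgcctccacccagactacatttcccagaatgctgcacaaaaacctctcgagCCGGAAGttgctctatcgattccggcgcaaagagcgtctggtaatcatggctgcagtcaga
Mrpl42: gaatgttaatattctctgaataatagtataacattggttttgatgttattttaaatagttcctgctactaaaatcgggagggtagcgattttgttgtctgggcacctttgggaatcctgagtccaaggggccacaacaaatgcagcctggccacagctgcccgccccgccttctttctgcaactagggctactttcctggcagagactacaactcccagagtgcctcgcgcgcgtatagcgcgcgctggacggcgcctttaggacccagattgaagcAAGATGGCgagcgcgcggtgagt
Mrpl33: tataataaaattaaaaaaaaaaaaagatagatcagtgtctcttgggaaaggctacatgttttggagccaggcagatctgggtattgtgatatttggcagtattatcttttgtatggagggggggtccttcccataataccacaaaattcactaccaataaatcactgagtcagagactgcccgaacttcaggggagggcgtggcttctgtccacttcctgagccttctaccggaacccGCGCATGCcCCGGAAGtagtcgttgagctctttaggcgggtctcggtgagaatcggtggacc
Mrpl32: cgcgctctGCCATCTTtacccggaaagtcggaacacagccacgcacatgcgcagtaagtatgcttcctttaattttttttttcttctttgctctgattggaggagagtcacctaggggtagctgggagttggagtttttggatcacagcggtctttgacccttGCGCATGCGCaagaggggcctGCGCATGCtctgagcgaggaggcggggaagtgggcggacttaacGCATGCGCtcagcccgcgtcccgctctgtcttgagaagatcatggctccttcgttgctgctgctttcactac
Mrpl34: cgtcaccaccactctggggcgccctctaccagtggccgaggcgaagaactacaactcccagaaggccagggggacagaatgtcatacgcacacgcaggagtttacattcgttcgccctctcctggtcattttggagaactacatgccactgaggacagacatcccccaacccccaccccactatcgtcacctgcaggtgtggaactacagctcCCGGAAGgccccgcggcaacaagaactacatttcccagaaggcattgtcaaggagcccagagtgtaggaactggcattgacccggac
Mrpl11: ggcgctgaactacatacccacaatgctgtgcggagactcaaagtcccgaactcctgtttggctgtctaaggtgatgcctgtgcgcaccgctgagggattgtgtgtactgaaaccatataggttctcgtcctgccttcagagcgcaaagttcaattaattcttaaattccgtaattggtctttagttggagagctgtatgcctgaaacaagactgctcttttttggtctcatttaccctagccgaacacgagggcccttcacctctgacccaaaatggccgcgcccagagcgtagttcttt
Mrps6: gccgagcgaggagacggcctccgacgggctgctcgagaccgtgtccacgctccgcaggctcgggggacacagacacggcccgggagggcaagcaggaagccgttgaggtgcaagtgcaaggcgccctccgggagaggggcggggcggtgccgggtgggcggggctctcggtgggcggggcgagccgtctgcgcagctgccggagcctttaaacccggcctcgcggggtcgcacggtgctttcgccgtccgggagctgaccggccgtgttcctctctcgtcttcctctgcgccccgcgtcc

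The window of Mrps33 (chr6:39810887-39811186, minus strand) held an ETS match just inside the transcript, and that of Mrps22 (chr9:98601630-98601929, minus strand) held 1 just before the start. Mrpl42 (chr10:95501900-95502199, minus strand) had a YY1 match after the start. Mrpl33 (chr5:31613701-31614000, plus strand) had NRF1 and ETS matches side by side, and Mrpl32 (chr13:14612988-14613287, minus strand) had several NRF1 matches, some of them overlapping on opposite strands, and a YY1 match. Of the lower genes, Mrpl34 (chr8:71464676-71464975, plus strand) held an ETS match while Mrpl11 (chr19:4962056-4962355, plus strand) and Mrps6 (chr16:92058086-92058385, plus strand) held none of the 3 strings.

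Matches were found in a larger share of member promoters than of other measured promoters. The ETS string was in 24 of 68 member promoters (35.3%), against 18.9% of 8919 other measured genes and 9.12% of all 27025 windows. The YY1 string was in 12 (17.6%), against 4.83% of other measured genes and 2.88% of all windows, and the NRF1 string was in 8 (11.8%), against 5.62% of other measured genes and 2.80% of all windows. At least 1 of these 3 strings was in 36 member promoters (52.9%), against 26.9% of other measured genes. Other elements gave another picture. The CCAAT box (CCAAT) was in 39.7% of member promoters and 39.3% of other measured genes, the E-box (CACGTG) in 7.35% and 10.3% and the TATA box (TATAAA) in 5.88% and 6.88%. Over all 27025 windows those shares were 37.9%, 7.24% and 14.2%. The GC box (GGGCGG) was in 34 of 68 member promoters, against 64.3% of other measured genes and 35.9% of all windows.

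Ratios were also set out by match. Measured members with the ETS string had a median log2 ratio of 0.08 (n = 23) and those without it 0.09 (n = 44), those with the YY1 string 0.14 (n = 12) and those without 0.08 (n = 55), and those with the NRF1 string 0.19 (n = 8) and those without 0.07 (n = 59). Of the 23 with the ETS string, 5 were called higher and 1 lower, and of the 44 without it 6 were called higher and 5 lower. Of the 12 with the YY1 string 3 were called higher and 1 lower, and of the 55 without it 8 higher and 5 lower. Of the 8 with the NRF1 string 2 were called higher and 0 lower, and of the 59 without it 9 higher and 6 lower. Over all measured genes, 17.1% were called higher and 18.3% lower, and the sets with these 2 strings are small. Members with the GC box had a median of -0.01 (n = 34) and those without it 0.15 (n = 33), and those with the E-box had -0.08 (n = 5) and those without it 0.11 (n = 62). For the CCAAT box the medians were 0.15 with it (n = 26) and 0.07 without it (n = 41), and for the TATA box 0.05 (n = 4) and 0.08 (n = 63). These gaps were not tested.

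**Figure D3:**
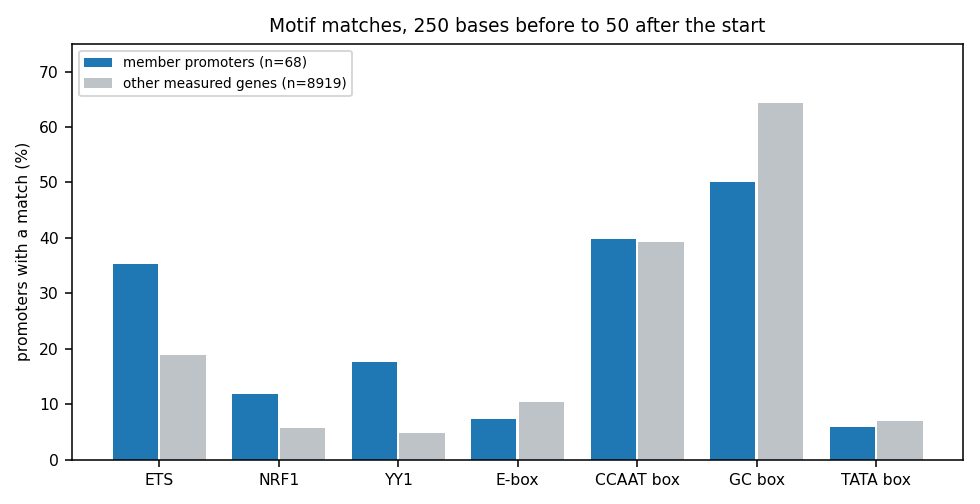
Share of promoter windows with at least 1 match on either strand (vertical axis, percent) for 7 motifs, with 68 member promoters as blue bars and 8919 other measured genes as grey bars. The member bars are higher for ETS (35.3% and 18.9%), NRF1 (11.8% and 5.62%) and YY1 (17.6% and 4.83%), and lower for the GC box (34 of 68 and 64.3%).

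The genes lie on 17 chromosomes (GENCODE M21, GRCm38), and many stand back to back with another gene. Of the 76 with a position, 25 (32.9%) had the start of an opposite-strand protein-coding gene within 500 bases, against 14.0% of 11466 other measured protein-coding genes. Mrps11 and Mrpl46, at the same locus on chromosome 7, form such a pair, and their exons overlap over 173 bases. Of the 22 pairs with a measured partner outside the family, 11 had ratios of the same sign, and over the pairs the ratios had a Pearson r of 0.44 and a Spearman rho of 0.32, a description of genes that share libraries and, in part, sequence. Of these 22 partners, 6 were called higher and 4 lower, where 17.1% and 18.3% of all measured genes were.

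Among these pairs, Mrpl57 on chromosome 14 (57826234 to 57829296) was called higher, and its partner Ska3, a kinetochore protein of dividing cells, had 19.1 CPM in the Ch25h-/- library and 9.47 CPM in the C57BL/6 library, a log2 ratio of 1.01 (0.73 to 1.29). Mrpl51 had a ratio of -0.08, while its partner Ncapd2, a condensin subunit, had 209.6 CPM in the Ch25h-/- library and 143.9 CPM in the C57BL/6 library (0.54, interval 0.47 to 0.62). Mrpl13 and Mtbp were called in opposite directions, at -0.39 and 0.44. Mrpl2 and Klc4, a kinesin light chain, were both called lower, at -0.41 and -0.58, and Mrps7 and Gga3, a trafficking adaptor, were too, at -0.41 and -0.33. Sharing a start region thus went with the same direction in some pairs and the opposite in others.

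**Figure D4:**
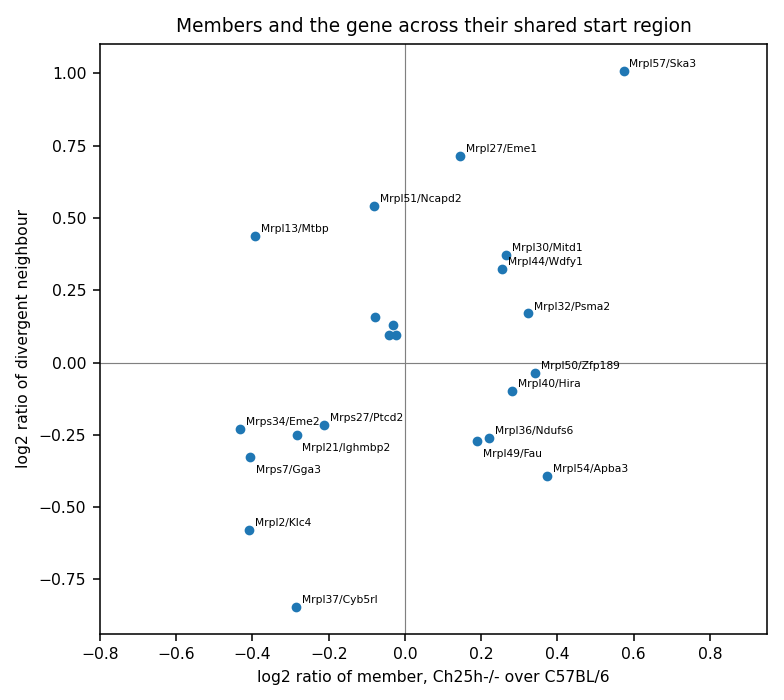
Log2 ratio (Ch25h-/- over C57BL/6) of the member (horizontal axis) and of the opposite-strand gene whose start lies within 500 bases (vertical axis), 1 point per pair, with names left off 4 pairs crowded near the origin. Of the 22 points, 11 lie in the quadrants of equal sign, with Mrpl57/Ska3 at 0.57 and 1.01 at the upper right and Mrpl13/Mtbp at -0.39 and 0.44 at the upper left.

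Such neighbours bear on the counts, because the strand setting of the counting is not given in the sources used here. Exons of 31 members overlap exons of another gene, 27 of them on the opposite strand and 7 on the same strand, and reads there cannot be assigned with certainty. Of the called genes, Mrpl18, Mrps25, Mrpl13, Mrps7, Mrps34 and Mrps6 are among them. In Mrps25 the overlap with Nr2c2 covers 4590 of 6576 exon bases. Mrps34 has 1309 opposite-strand and 763 same-strand overlapping bases, on an exon length of 2064. Mrpl53, the lowest per length among members with a known length, overlaps Gm42688 on the same strand over 695 of 790 exon bases. Mrpl24, the highest per length among members with a known length, overlaps Rrnad1 on the opposite strand over 594 of 2255 exon bases. Of the 45 measured genes with a position and no overlap, 9 were called higher (20.0%) and 5 lower (11.1%), with a median of 0.08. Of the 30 with an overlap, 2 were called higher (6.67%) and 4 lower (13.3%), with a median of 0.03. The shares over all measured genes were 17.1% and 18.3%. Mrpl33 could not be placed, because its gene ID is not in that annotation.

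The 6 ribosomal proteins that carry other names were not called. Dap3, a GTP-binding protein of the small subunit, had 52.9 CPM in the Ch25h-/- library and 63.8 CPM in the C57BL/6 library, a log2 ratio of -0.27 (-0.40 to -0.14). Ptcd3, a pentatricopeptide protein of the small subunit, had 40.3 CPM in the Ch25h-/- library and 36.0 CPM in the C57BL/6 library (0.16), Chchd1 had a ratio of 0.22 and Aurkaip1 one of -0.26. Ict1, the table's symbol for Mrpl58, a peptidyl-tRNA hydrolase built into the large subunit, and Gadd45gip1 had ratios of 0.00 when rounded. Added to the family, these 6 brought no call to either side.

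Factors that build the ribosome gave a similar mixture. Of 26 genes for assembly and modification of ribosomal RNA, 5 were called higher (19.2%, against 17.1% of all measured genes). Another 2 were called lower (7.69%, against 18.3%), and the median was 0.02. Rnmtl1 (Mrm3), an rRNA methyltransferase, had 55 counts in the Ch25h-/- library and 34 in the C57BL/6 library (0.81), Mpv17l2, a factor for ribosome assembly, had 137 in the Ch25h-/- library and 100 in the C57BL/6 library (0.57). Ybey, an RNA endonuclease, had 72 in the Ch25h-/- library and 53 in the C57BL/6 library (0.55), and these were the largest ratios of the list. The lower calls were Nsun4, which methylates rRNA and joins in subunit assembly, at 18.3 CPM in the Ch25h-/- library and 30.2 CPM in the C57BL/6 library (-0.72), and Rpusd4, a pseudouridine synthase, at 15.2 CPM in the Ch25h-/- library and 20.0 CPM in the C57BL/6 library (-0.40). Ftsj2 (Mrm2), another methyltransferase, had a ratio of -0.34 and was not called. Mettl17 was the most abundant in the mean of both libraries, at 27.7 CPM in the Ch25h-/- library and 32.0 CPM in the C57BL/6 library.

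Of 16 translation factors, 1 was called higher (6.25%, against 17.1% of all measured genes) and 2 lower (12.5%, against 18.3%), with a median of -0.04. Mtrf1l, the release factor that ends most mitochondrial proteins, had 17.0 CPM in the Ch25h-/- library and 11.6 CPM in the C57BL/6 library (0.55). Tufm, the elongation factor that brings tRNAs, had 13.8 CPM in the Ch25h-/- library and 17.7 CPM in the C57BL/6 library (-0.36). Taco1, which activates translation of a cytochrome oxidase subunit, had 5.93 CPM in the Ch25h-/- library and 7.83 CPM in the C57BL/6 library (-0.40). Mtif2 (0.30), 2810006K23Rik (0.19) and Mrrf (-0.34) were not called, nor was Oxa1l, the membrane insertase at the exit tunnel and the most abundant of the list, at 59.3 CPM in the Ch25h-/- library and 65.3 CPM in the C57BL/6 library.

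Of the 20 mitochondrial aminoacyl-tRNA synthetases and tRNA-charging enzymes, 2 were called higher (10.0%, against 17.1% of all measured genes) and 6 lower (30.0%, against 18.3%), with a median of -0.03. Aars2 (-0.67), Ears2 (-0.57) and Tars2 (-0.45) had the lowest ratios, and Mars2 (0.41), Rars2 (0.38) and Nars2 (0.35, not called) the highest. Lars2, the most abundant, had 290.5 CPM in the Ch25h-/- library and 377.5 CPM in the C57BL/6 library (-0.38). Of 13 genes for mitochondrial transcription and DNA maintenance, 2 were called higher (15.4%) and 1 lower (7.69%), against the same 17.1% and 18.3%, with a median of 0.08. The higher ones, Mterf2 (67 counts in the Ch25h-/- library and 33 in the C57BL/6 library) and Mterf1b (29 in the Ch25h-/- library and 15 in the C57BL/6 library), passed 2-fold on low counts. By the 2-fold rule, 2.07% of all measured genes were higher. Polg2, the accessory subunit of the mitochondrial DNA polymerase, was called lower (-0.45), and the abundant Polg, its catalytic subunit, had 92.1 CPM in the Ch25h-/- library and 92.8 CPM in the C57BL/6 library. Tefm (0.65), Top1mt (-0.33) and Polrmt, the mitochondrial RNA polymerase (-0.28, interval -0.46 to -0.10), were not called.

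The messages that this ribosome translates were read from the same libraries. Of these 13 mitochondrially encoded messages, 10 were called higher (76.9%, against 17.1% of all measured genes) and none lower (against 18.3%). Their median log2 ratio was 0.45, with sums of 15070 CPM in the Ch25h-/- library and 11654 CPM in the C57BL/6 library. Of 75 measured nuclear-encoded respiratory chain subunits, 4 were called higher (5.33%) and 1 lower (1.33%), with a median of 0.10 and an SD of 0.16. Of 80 measured cytosolic ribosomal proteins, 3 were called higher (3.75%) and 15 lower (18.75%), with a median of -0.15 and an SD of 0.22. The median of the mitochondrial ribosomal proteins, 0.08, lay between those of the cytosolic ribosome and the mitochondrial messages and close to that of the respiratory chain. Their SD of 0.38 was larger than those of the respiratory chain and the cytosolic ribosome but smaller than the 0.58 of all measured genes. At a minimum mean of 5 CPM the SD was 0.30 for members and 0.47 for all genes. The counting interval of a member, with a median of 0.27 to each side, was wider than the 0.18 of the respiratory chain and the 0.14 of the cytosolic ribosome.

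**Figure D5:**
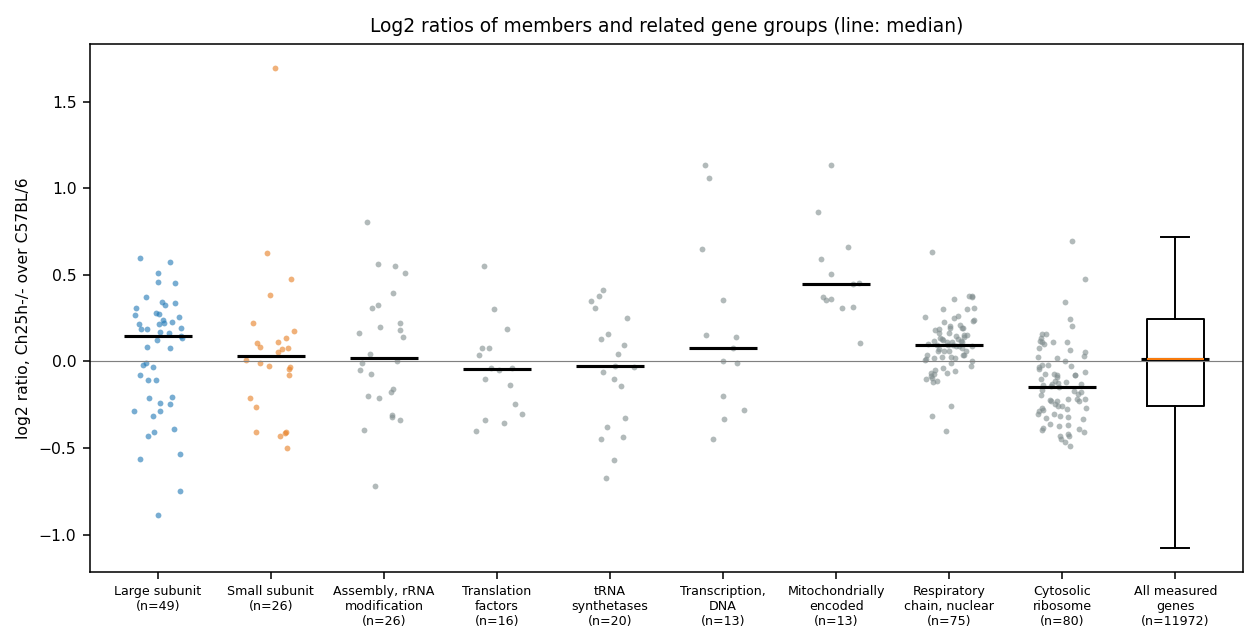
Log2 ratio of Ch25h-/- over C57BL/6 (vertical axis) for measured genes of the mitochondrial ribosome, its associated lists and comparison lists, 1 point per gene with the median as a black line, and for all 11972 measured genes a box of the quartiles with whiskers from the 5th to the 95th percentile. The large and small subunits spread around medians of 0.15 and 0.03, the mitochondrially encoded messages lie wholly above 0 (median 0.45), and the cytosolic ribosome centres on -0.15.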

How the data were processed

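Per the labels' protocols, TRIzol RNA of the sorted spleen cells went into KAPA RNA HyperPrep libraries. The submitters' processing notes list the builds GRCm38 and mm10 and the tools GSNAP, featureCounts, FastQC (version 0.11.9), edgeR (version 3.26.8) and Subread (version 1.5.2). The deposited table holds the authors' whole-number counts per gene, used as given, with 1 column per genotype. Not given in the sources used here are the number of mice per library, how reads with several possible places were counted, and the strand setting.

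Scaling to CPM used TMM factors (0.991 for Ch25h-/- and 1.01 for C57BL/6) from edgeR 4.0.16 in R 4.3.3. Ratios have no prior count, and their exact 95% Clopper-Pearson intervals (scipy 1.17.1) cover counting error only, since without molecular identifiers a read need not be an independent molecule. With 1 library per genotype, no p-value is given. The steps were tested on simulated data.

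Positions, overlaps and lengths come from GENCODE M21 (GRCm38), which holds 76 of the 77 gene IDs. The principal mRNA is the APPRIS principal transcript. Assignment to a subunit and to a bacterial counterpart follows the ribosomal protein nomenclature. Any member could be named with its levels. Intervals are given for called members, the 8 largest and 8 smallest ratios, the 5 highest and 5 lowest levels per length, and the Mrps18, Mrpl10 and Mrpl12 genes, and intervals of other genes were chosen after their values were seen. Of each associated list, the 3 largest and 3 smallest ratios and the most abundant gene are named, and further ones were chosen after their values were seen. The members and lists were chosen with earlier results of these data known, and the 7 motifs reported were kept after a first search of the promoters with further strings. Results were recomputed with an interval wholly beyond the fold, with a prior count of 2, with a minimum of 5 CPM or of 1 count, and with 4 other scalings: total counts, upper quartile, DESeq2 1.42.0 size factors, and TMM without mitochondrially encoded genes. Members without exon overlap were added as an alternative after seeing the data. Figures were drawn with matplotlib 3.10.9.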

Additional observations from a re-analysis of the deposited data

How the results depend on the processing

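Under the 4 other scalings, 10 to 13 members were called higher and 9 or 10 lower, the median of the members was 0.05 to 0.09, and the median of all measured genes moved by at most 0.03. No called member changed sign under the alternatives tried, whereas Mrps15 (-0.02 under total counts), Mrpl20 (0.01 under upper quartile scaling) and Mrps17 (0.01 under upper quartile scaling), all uncalled and near 0, did. Counting only intervals wholly beyond the fold left 2 members higher (Mrps33 and Mrpl42) and 1 lower (Mrpl34) at a log2 ratio of 0.32 and 0 higher at 2-fold, where the reported counts are 12, 9 and 1. A minimum of 5 CPM left 0 members higher at 2-fold, since it removes Mrps33. Among members without exon overlap, an alternative chosen after seeing the data, 5 were lower, and the medians were 0.18 for the large subunit and 0.063 for the small subunit. This alternative uses fewer genes. Mrpl32 lost its call under DESeq2 size factors (0.32), total counts (0.30) and a prior count of 2 (0.32). Under total counts Mrpl50 lost its call (0.32) and Mrpl23 gained one (-0.91), and Mrpl41 gained one under upper quartile scaling (0.35). No paired analysis was possible because each genotype has 1 library. Variation between mice, sorts and library preparations is not measured, and differences within the counting interval, typically 0.27 to each side for a member, were not detectable at this depth.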
